A study of Mus musculus with 14 samples.

Results

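The 10 genes described here are class markers of GABAergic interneurons other than the gene *Sst*, namely *Pvalb*, *Vip*, *Reln*, *Calb2*, *Npy*, *Lamp5*, *Nos1*, *Lhx6*, *Cck* and *Htr3a*. The somatostatin class itself is not excluded, since members such as *Lhx6* also belong to it. They were taken by symbol from the 46904 genes of the expression table, and all 10 were above 0 in all 14 libraries. RNA from brain hemispheres of male mice was sequenced 48 h after a 20 min occlusion of the left middle cerebral artery (MCAO) by a filament, at an age of 12 weeks. The groups were contralateral (CL) and ischemic (MCAO) hemispheres of wild-type Cort+/+ mice (3 libraries each). The same hemispheres of cortistatin-deficient Cort-/- mice gave 3 CL and 5 MCAO libraries. The Cort+/+ MCAO libraries carry the numbers 2, 3 and 4, while the authors name 5 MCAO replicates. The authors also state that, where variability was large, they kept the replicates that grouped clearly. Whether this shaped the Cort+/+ MCAO group is not stated. The mutant line is kept on a C57BL/6J background and is deficient in *Cort*, the gene of the neuropeptide cortistatin. The CL hemisphere comes from operated animals, so that no library represents an unoperated brain.

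Interneurons are the locally projecting inhibitory neurons of cortex, hippocampus and striatum, and they release GABA onto excitatory cells and onto each other. Their classes arise mainly from the medial and the caudal ganglionic eminences of the embryonic brain (MGE and CGE) and differ in firing pattern, in the part of the target cell they contact and in the peptides or calcium-binding proteins they hold. Cortistatin itself is a peptide of such cells, related to somatostatin, and ischemia is known to spare some striatal interneurons while the surrounding spiny projection neurons die. Most of these markers are not confined to interneurons, since *Cck* and *Lamp5* are also made by cortical excitatory neurons, *Calb2* and *Nos1* by neurons of many brain regions and *Reln* by cells of the cortical surface and by cerebellar granule cells.

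Among the peptide genes, GRCm39 places *Cck* at chr9:121315695-121324863 (-), *Npy* at chr6:49799026-49806489 (+) and *Vip* at chr10:5589186-5599956 (+), the strand given in parentheses. The calcium-binding proteins are encoded by *Pvalb* at chr15:78075314-78091149 (-) and *Calb2* at chr8:110864128-110894881 (-). The receptor subunit, the enzyme and the transcription factor are encoded by *Htr3a* at chr9:48810512-48822686 (-), *Nos1* at chr5:117918971-118096905 (+) and *Lhx6* at chr2:35971964-35995601 (-), and the membrane and secreted glycoproteins by *Lamp5* at chr2:135894159-135911924 (+) and *Reln* at chr5:22089452-22549700 (-). All 10 are protein-coding genes.

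3 of the members are peptide genes for which RefSeq (GRCm38.p6) gives a promoter, and they are shown because promoters of peptide genes are known to respond to cyclic AMP. Each sequence holds the 250 bases before the annotated start, read in the direction of the gene, and capitals mark the half-site of the cyclic AMP response element, TGACG on either strand (CGTCA when it lies on the other strand).
Vip (chr10:5638968-5639217, + strand): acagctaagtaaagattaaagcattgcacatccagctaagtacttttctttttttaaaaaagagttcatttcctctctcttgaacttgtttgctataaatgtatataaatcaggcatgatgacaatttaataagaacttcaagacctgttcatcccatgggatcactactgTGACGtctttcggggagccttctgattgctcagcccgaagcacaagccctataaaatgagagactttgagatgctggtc
Cck (chr9:121495695-121495944, - strand): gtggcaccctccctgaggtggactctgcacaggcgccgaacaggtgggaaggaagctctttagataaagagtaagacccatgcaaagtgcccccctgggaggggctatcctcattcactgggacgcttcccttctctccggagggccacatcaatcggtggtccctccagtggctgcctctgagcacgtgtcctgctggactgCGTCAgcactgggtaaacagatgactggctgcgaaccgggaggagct
Npy (chr6:49822460-49822709, + strand): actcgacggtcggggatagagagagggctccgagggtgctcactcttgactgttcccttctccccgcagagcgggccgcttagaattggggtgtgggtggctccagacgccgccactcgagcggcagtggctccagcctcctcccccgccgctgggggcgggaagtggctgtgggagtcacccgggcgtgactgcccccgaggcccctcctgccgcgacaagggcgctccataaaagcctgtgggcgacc
The first base of the half-site lay at position -79 from the start in *Vip* and at -47 in *Cck*, and *Npy* held no match in this window. Among the 8 members with a window (12 windows in all), *Nos1* was the other one with a match, at -130. The start used for *Nos1* may be that of an internal exon, so its window may not be a promoter. The half-site occurs in 17.8% of the 32851 windows of the table. The full element TGACGTCA, which contains the half-site on both strands, occurs in 1.55% of windows and in none of the members. The letters TATAAA occur in 12.4% of windows and, of the members, in *Vip*. These matches are letters in a sequence and were not measured as binding sites.

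Sequencing depth, recovered from the values, ranged from 25989819 to 43032554 reads on genes. The targeted gene held 64 to 139 reads in the Cort+/+ libraries and 0 to 4 in the Cort-/- libraries, as the labels require. Between 147 reads (*Htr3a*, Cort-/- MCAO replicate 3) and 6065 reads (*Cck*, Cort-/- MCAO replicate 2) lay behind each value of a member, which corresponds to a counting error of at most 8.25% for *Htr3a* and at most 1.65% for *Cck*. No 2 replicates were copies of each other. In whole hemispheres, fewer cells of a class and less RNA per cell cannot be told apart.

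Expression is given as RPKM, reads scaled to the length of the gene and the size of the library, so that levels can be set side by side between genes. *Cck*, a peptide of basket cells and of excitatory neurons, was the most abundant member at 118 ± 10.3 RPKM (SD, n = 14), followed by *Npy*, the peptide of neurogliaform and of striatal nitric oxide cells, at 94.6 ± 6.34 RPKM (SD, n = 14). *Lamp5*, a membrane protein that marks neurogliaform cells, averaged 58.6 ± 5.92 RPKM (SD, n = 14), and *Pvalb*, the calcium buffer of fast-spiking basket and chandelier cells, averaged 37.7 ± 4.79 RPKM (SD, n = 14). *Calb2* (calretinin) averaged 31.6 ± 6.55 RPKM and *Vip*, the peptide of cells that inhibit other interneurons, averaged 17.5 ± 1.89 RPKM (SD, n = 14 each). The low members were *Nos1*, neuronal nitric oxide synthase (8.67 ± 0.887 RPKM), the secreted glycoprotein *Reln* (8.32 ± 0.96 RPKM), *Lhx6*, the transcription factor of MGE-derived cells (5.87 ± 0.485 RPKM), and *Htr3a*, a serotonin receptor subunit of CGE-derived cells (3.08 ± 0.396 RPKM, SD, n = 14 each). *Sst*, the marker gene left out here, was higher than all of them at 162 ± 17.5 RPKM (SD, n = 14).

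The order of the levels was the same in every library except at 3 steps. *Pvalb* exceeded *Calb2* in 11 of 14 libraries, *Calb2* exceeded *Vip* in 13 of 14, and *Nos1* exceeded *Reln* in 12 of 14. The mean levels of *Nos1* and *Reln* differed by less than the SD of either gene, and those of *Pvalb* and *Calb2* by less than the SD of *Calb2*. Across all 14 libraries the highest value of a member was between 1.27 times (*Npy*) and 1.61 times (*Htr3a*) its lowest, apart from *Calb2*, for which it was 3.01 times.

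**Figure D1:**
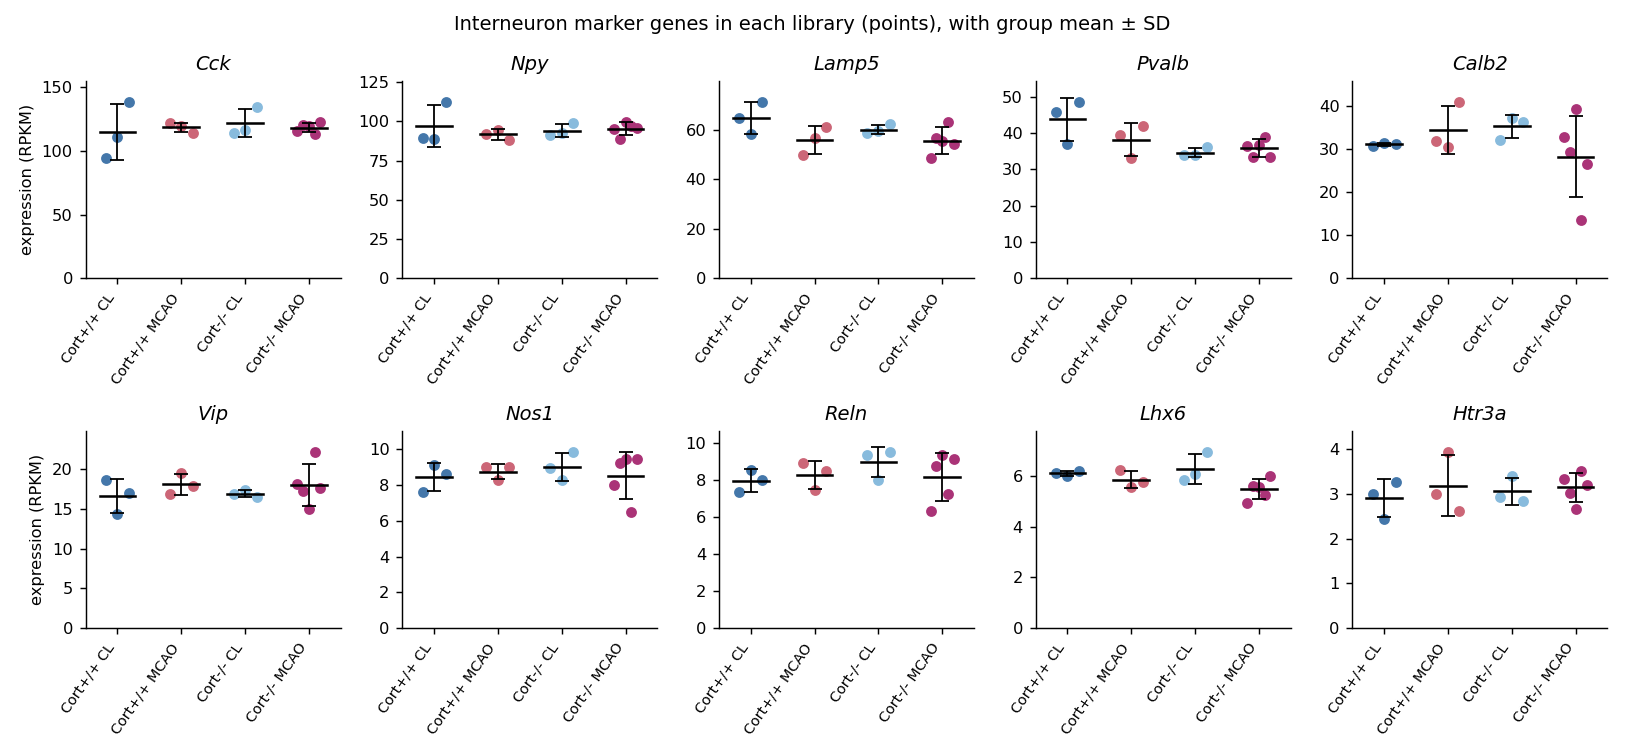
Expression (RPKM, vertical axis from 0) of the 10 interneuron marker genes in the 4 groups of genotype and hemisphere. Each point is a library and the bars are the group mean ± SD (n = 3, or 5 for Cort-/- MCAO), and the groups overlap for most genes, with 1 low *Calb2* library at 13.6 RPKM and *Pvalb* highest in Cort+/+ CL at 43.7 ± 5.95 RPKM.

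The first comparison was between hemispheres, which asks whether interneuron transcripts differ in the ischemic tissue. None of the 10 members passed the test between MCAO and CL hemispheres averaged over both genotypes (limma adjusted p under 0.05, Benjamini-Hochberg over 46102 genes), and 7 were lower and 3 higher, which became 3 lower and 7 higher when the libraries were scaled by pan-neuronal genes. The contrast called 1579 genes, a share of 3.43%, and 7.64% of the 11467 genes expressed at least as highly as *Htr3a*. The median log2 fold change of the members was -0.04, beside -0.03 over those 11467 genes. Without adjustment 2 members had a p under 0.05, *Lamp5* and *Lhx6*, and limma voom on the recovered reads called 0 members and gave 0 of them an unadjusted p under 0.05. The 95% intervals of all 10 members lay within a 1.5-fold change in either direction, from 0.691-fold (the lower bound of *Calb2*) to 1.23-fold (the upper bound of *Htr3a*).

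*Lamp5* was at 65.0, 58.4 and 71.2 RPKM in the Cort+/+ CL hemispheres and at 50.0, 56.8 and 61.3 RPKM in the Cort+/+ MCAO hemispheres. In Cort-/- mice it was at 58.7, 59.3 and 62.2 RPKM in CL and between 48.5 and 63.3 RPKM (median 55.5) in the 5 MCAO hemispheres. The MCAO libraries were lower on average in both genotypes, and the ranges overlapped in both. The log2 fold change averaged over genotypes was -0.16 (95% interval -0.30 to -0.02, limma adjusted p = 0.243). It passed in none of the 26 alternatives.

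*Lhx6*, which MGE-derived neurons need to become parvalbumin and somatostatin cells, was at 6.13, 6.00 and 6.20 RPKM in Cort+/+ CL and at 6.23, 5.57 and 5.77 RPKM in Cort+/+ MCAO hemispheres. In Cort-/- mice it was at 5.83, 6.07 and 6.96 RPKM in CL and between 4.95 and 6.02 RPKM (median 5.59) in MCAO hemispheres. The highest Cort-/- MCAO value lay above the lowest CL value, so these groups overlapped. The log2 fold change was -0.13 on average (95% interval -0.24 to -0.01, limma adjusted p = 0.275), -0.06 in Cort+/+ and -0.19 in Cort-/- mice (limma adjusted p = 0.24 in the latter).

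The parvalbumin marker *Pvalb* had an average log2 fold change of -0.07 between hemispheres (95% interval -0.22 to 0.08, limma adjusted p = 0.7). *Npy* and *Nos1*, which mark a shared class of striatal interneurons, were at -0.03 (-0.14 to 0.09) and -0.02 (-0.21 to 0.17). Of the remaining members, *Vip* had 0.10 (-0.07 to 0.28), *Htr3a* 0.08 (-0.14 to 0.30), *Cck* 0.01 (-0.14 to 0.17), *Reln* -0.05 (-0.24 to 0.15) and *Calb2* -0.13 (-0.53 to 0.27). All of these intervals include 0.

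Within the genotypes, none of the 10 members passed either. In Cort+/+ mice 5 genes of the whole table were called (0.0108%), and *Lamp5* was the member with an unadjusted p under 0.05 (log2 fold change -0.21, limma adjusted p = 0.63), as it was with voom. In Cort-/- mice 792 genes were called (1.72%), with *Lhx6* the member under an unadjusted p of 0.05, and voom had 0 such members. The groups overlapped for all 10 members in both genotypes, where 9.84% and 9.11% of all genes did not overlap in Cort+/+ and in Cort-/- mice.

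The level of *Calb2*, calretinin, was 30.6, 31.5 and 31.0 RPKM in Cort+/+ CL and 31.8, 30.5 and 40.8 RPKM in Cort+/+ MCAO hemispheres. In Cort-/- mice it was 32.2, 37.2 and 36.3 RPKM in CL, and 32.7, 29.2, 39.2, 13.6 and 26.4 RPKM in MCAO replicates 1 to 5. MCAO replicate 4 held 987 *Calb2* reads, against 1767 to 2479 in the other libraries. The log2 fold change in Cort-/- mice was -0.40 (95% interval -0.94 to 0.14, limma adjusted p = 0.573) and -0.16 without that library. That library also held the lowest *Nos1* (6.47 RPKM) and the highest *Vip* (22.2 RPKM) of all 14. Its summed level was 138 RPKM over 7 neuroblast genes, against 176 to 216 RPKM in the other libraries, and 722 RPKM over 6 astrocyte genes, the highest of all. Most of the neuroblast sum was *Tubb3*, a gene of neurons in general, which averaged 171 RPKM over all libraries. The part of these sums in the *Calb2* value was not tested.

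**Figure D2:**
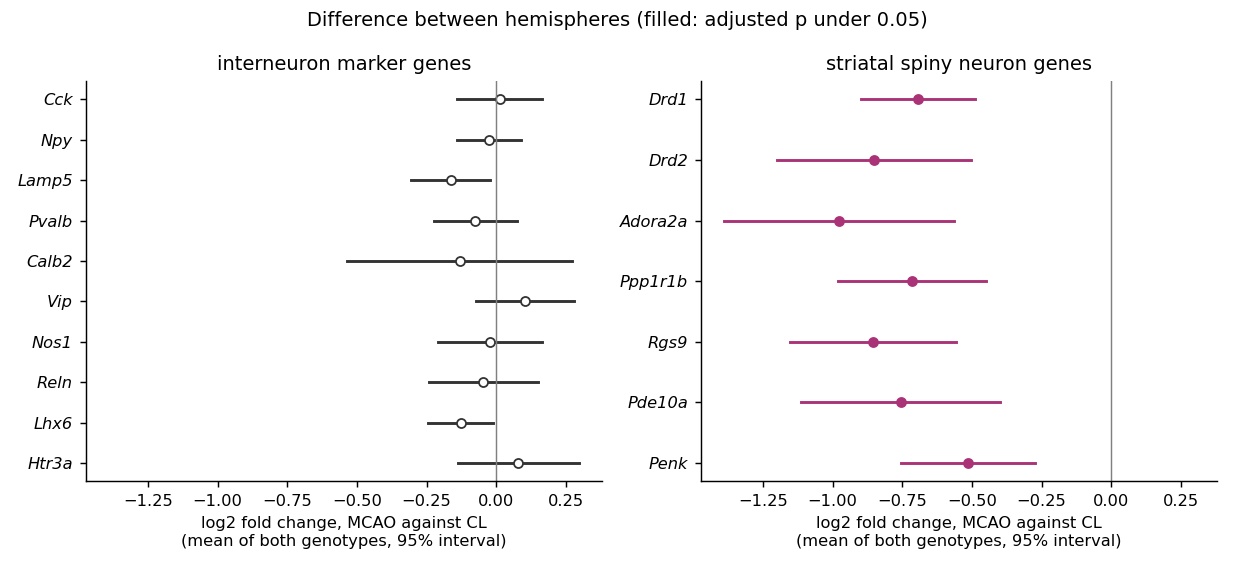
Log2 fold change between MCAO and CL hemispheres, averaged over both genotypes, with its 95% interval (horizontal axis), for the 10 interneuron marker genes and for 7 of the 8 genes of striatal spiny neurons. Filled points have a limma adjusted p under 0.05, and the interneuron markers lie between -0.16 and 0.10 and the spiny neuron genes between -0.98 and -0.52. The lists differ in brain region as well as in cell class.

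Other genes of the inhibitory neurons and of their surroundings were read in the same contrast. All 8 genes of striatal spiny projection neurons, the principal cells of the striatum, fell in MCAO hemispheres, with a median log2 fold change of -0.80. Among them were *Adora2a*, the adenosine receptor of the indirect pathway, at -0.98 (limma adjusted p = 0.0138), *Rgs9* at -0.86 and *Drd2* at -0.85. Summed over the list, expression was 401 to 447 RPKM in Cort+/+ CL, 223 to 371 RPKM in Cort+/+ MCAO, 398 to 422 RPKM in Cort-/- CL and 188 to 294 RPKM in Cort-/- MCAO hemispheres. The summed level of the 10 members was 368 to 445, 379 to 390, 374 to 414 and 370 to 393 RPKM in the same groups. That of 10 genes of glutamatergic neurons was 453.5 to 524.1, 466.1 to 495.7, 510.5 to 523 and 479.4 to 538.9 RPKM. Without Cort+/+ CL replicate 3, 6 of the 8 spiny neuron genes passed, and with the replicate block 0. Within the genotypes all 8 were lower in MCAO hemispheres, and 0 passed in Cort+/+ and 6 in Cort-/- mice. The difference between the members and the spiny neuron genes was not tested. The libraries are whole hemispheres, and the paper places the start of the infarct in the striatum. The spiny neuron list is striatal, while the members are expressed in several regions. Brain region and cell class therefore cannot be told apart here.

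All 10 genes shared by GABAergic neurons (the pan-GABAergic list) were lower in MCAO hemispheres (9 of 10 with pan-neuronal scaling), with a median of -0.14, and 1 of them passed. This was *Dlx6*, a forebrain transcription factor that is also expressed in striatal neurons (log2 fold change -0.42, limma adjusted p = 0.0456), and an antisense gene, Dlx6os2, overlaps its exons. The GABA-synthesising enzymes *Gad1* and *Gad2* had -0.10 each (limma adjusted p = 0.421 and 0.433), and the vesicular GABA transporter *Slc32a1* had -0.20 (adjusted p = 0.115). Spiny neurons are GABAergic too, so this list does not stand for interneurons alone.

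Of 12 genes of MGE-derived and parvalbumin cells, 2 fell and 0 rose, with a median of -0.11. They were *Tac1*, the substance P precursor, which is also a gene of spiny neurons (-0.38, limma adjusted p = 0.0384), and *Hapln4*, a link protein of perineuronal nets (-0.16, adjusted p = 0.04), whose exons overlap those of *Ncan* on the other strand. Of 14 genes of CGE-derived, VIP and LAMP5 cells, 1 fell, the cannabinoid receptor gene *Cnr1* (-0.27, adjusted p = 0.0367), with a median of -0.05. Of 8 genes of somatostatin cells 0 passed, with 1 at an unadjusted p under 0.05 and 0 calls with voom (median -0.06). *Sst* was at 176 ± 26.1 RPKM in Cort+/+ CL, 162 ± 17.7 in Cort+/+ MCAO, 160 ± 10.9 in Cort-/- CL (SD, n = 3 each) and 153 ± 13.6 RPKM in Cort-/- MCAO hemispheres (SD, n = 5). The single calls depended on the libraries. When each library was left out in turn, *Dlx6* passed in 2 of 14 fits, *Tac1* in 3, *Hapln4* in 5 and *Cnr1* in 5. With pan-neuronal scaling *Cnr1* was the one of these genes that passed.

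The pathways through which the members act were examined as well. None of the 8 receptors for VIP, NPY and CCK passed (limma, median -0.06, 0 at an unadjusted p under 0.05), and neither did any of 6 genes of Reelin signalling, its receptors *Vldlr* and *Lrp8* and their downstream adaptors (median -0.03, 2 at an unadjusted p under 0.05), with 0 calls by voom in either list. Among 9 genes of nitric oxide signalling 1 rose and 2 fell (median -0.13). The riser was *Nos3*, the endothelial synthase (0.35, limma adjusted p = 0.0351), whose exons overlap *Atg9b* on the other strand. *Gucy1b1*, a subunit of the guanylate cyclase that nitric oxide activates (-0.19, adjusted p = 0.0342), and *Dlg4*, the scaffold that binds neuronal synthase (-0.19, adjusted p = 0.0241), fell. These calls held in 5, 6 and 9 of the 14 fits with a library left out, and both falls were lost with pan-neuronal scaling. Of 6 perineuronal net genes 1 fell, *Hapln4*, and voom called 0 of them.

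Markers of other cells were read in the same contrast, and most of the calls fell on microglial and astrocyte genes. Of 12 pan-neuronal genes 0 passed (median -0.10, 4 at an unadjusted p under 0.05), while voom called 2, and of 10 genes of glutamatergic neurons 1 fell, *Bcl11b*, which spiny neurons also express (-0.42, limma adjusted p = 0.00988). Of 8 genes of microglia and macrophages 7 rose (median 0.90), of 6 astrocyte genes 4 (median 0.49), of 6 endothelial genes 2 (median 0.33, and 0 or 1 when any 1 library was left out) and of 6 oligodendrocyte genes 0 (median -0.02, 3 at an unadjusted p under 0.05 in limma and 1 called by voom). Of 8 cerebellar genes 0 passed (median -0.08, 2 at an unadjusted p under 0.05) and of 7 neuroblast genes 0 (median -0.12, 0 at an unadjusted p under 0.05), with 0 calls by voom in both lists. The Purkinje cell marker *Pcp2* and the granule cell marker *Gabra6* were at or below 0.13 RPKM on average in every group. Over all libraries, the other genes of the cerebellar list averaged from 0.0615 RPKM (*Fat2*) to 23.0 RPKM (*Calb1*). The summed microglial level was 59.6 to 68.3 RPKM in CL and 83.8 to 154 RPKM in MCAO hemispheres of both genotypes. Scaling each library by the 12 pan-neuronal genes moved the members up by about 0.10, to between -0.07 (*Lamp5*) and 0.20 (*Vip*), and called 0 of them.

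The second comparison was between genotypes, which asks whether the loss of cortistatin is accompanied by a change in the other interneuron markers. None of the 10 members passed in CL hemispheres, in MCAO hemispheres or on average, where 7 (0.0152%), 8 (0.0174%) and 31 (0.0672%) of all genes were called. An unadjusted p under 0.05 was found for 1, 0 and 1 member with limma and for 1, 0 and 1 with voom, and voom called 0. On average over both hemispheres 6 members were higher and 4 lower in Cort-/- mice (8 and 2 after rescaling to TPM), with a median log2 fold change of 0.01, and the 95% intervals of all 10 lay within 1.5-fold, between 0.712-fold and 1.25-fold, both bounds belonging to *Calb2*.

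*Pvalb* was the member with an unadjusted p under 0.05. It was at 45.7, 37.1 and 48.5 RPKM in Cort+/+ CL and at 33.9, 33.9 and 36.1 RPKM in Cort-/- CL hemispheres. The Cort+/+ MCAO hemispheres held 39.4, 33.1 and 42.0 RPKM and the Cort-/- MCAO hemispheres between 33.3 and 39.0 RPKM, with a median of 36.4 RPKM. All Cort-/- values in CL were below all Cort+/+ values, while the MCAO groups overlapped. The log2 fold change was -0.33 in CL (95% interval -0.55 to -0.10, limma adjusted p = 1) and -0.09 in MCAO hemispheres (-0.29 to 0.11). It was -0.25 without Cort+/+ CL replicate 3 and -0.44 without replicate 2, and the smallest adjusted p over 26 alternatives in CL was 0.383. On average over hemispheres it was -0.21 (-0.36 to -0.06, limma adjusted p = 1).

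*Calb2* was the other member without overlap in CL hemispheres, at 30.6 to 31.5 RPKM in Cort+/+ and 32.2 to 37.2 RPKM in Cort-/- mice (log2 fold change 0.18, 95% interval -0.42 to 0.78). Thus 2 of 10 members did not overlap between genotypes in CL, in opposite directions, beside 6.25% of all genes, and 0 of 10 in MCAO hemispheres, beside 2.42%. The remaining members differed by little on average. *Npy* had 0.01 (-0.10 to 0.13), *Vip* 0.01 (-0.16 to 0.18), *Nos1* 0.02 (-0.17 to 0.21), *Lhx6* -0.03 (-0.15 to 0.09), *Htr3a* 0.04 (-0.18 to 0.25), *Cck* 0.05 (-0.10 to 0.20), *Lamp5* -0.06 (-0.20 to 0.08) and *Reln* 0.07 (-0.13 to 0.26). *Cort* was the gene of the somatostatin list that passed between genotypes, and no gene of the pan-GABAergic, MGE, CGE, receptor, Reelin or nitric oxide lists passed in the averaged genotype contrast (limma, 2 genes of these lists at an unadjusted p under 0.05, and 0 calls by voom).

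**Figure D3:**
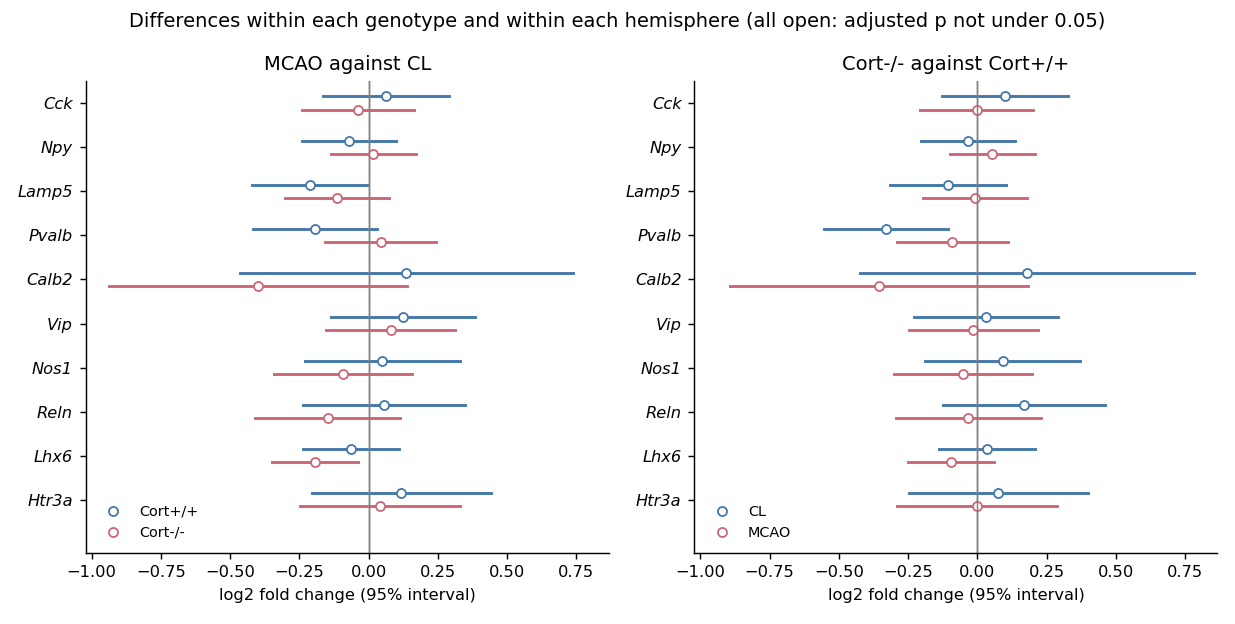
Log2 fold change with 95% interval (horizontal axis) for each of the 10 interneuron marker genes, between hemispheres within each genotype (left) and between genotypes within each hemisphere (right). All points are open because none has a limma adjusted p under 0.05, and the interval of *Pvalb* between genotypes in CL runs from -0.55 to -0.10.

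The third comparison asked whether the change from CL to MCAO was itself unequal in the genotypes (an interaction contrast). None of the 10 members passed, with 0 at an unadjusted p under 0.05 in limma and in voom, and 1 gene of the table was called (0.00217%). *Calb2* had the largest estimate, -0.53 (95% interval -1.34 to 0.27), which was -0.29 without Cort-/- MCAO replicate 4. The estimate for *Pvalb* was 0.24 (-0.06 to 0.54, limma adjusted p = 1). The intervals here were wider than in the other comparisons, and 8 of 10 lay within a 1.5-fold difference.

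The members were also compared with each other across the 14 libraries, as a description. *Reln* and *Nos1* varied together (Pearson r = 0.781, Spearman rho = 0.859, n = 14 libraries) and did so without Cort-/- MCAO replicate 4 (r = 0.871) and without the 2 libraries farthest in *Reln* (r = 0.906). They are the longest of the 10 genes, with 11699 and 10225 bases in the RPKM calculation, against 566 to 3699 for the others. *Vip* varied with *Htr3a* (r = 0.75, rho = 0.719) and against *Nos1* (r = -0.791, rho = -0.705) and *Reln* (r = -0.604, rho = -0.767). Without Cort-/- MCAO replicate 4 these values of r were 0.76, -0.593 and -0.553. The relations of *Calb2* to *Vip* and *Nos1* rested on that library, with r = -0.673 and 0.709 over all and -0.245 and 0.112 without it. *Reln* and *Lhx6* had r = 0.618 over all and 0.19 without the 2 libraries farthest in *Reln*. *Npy* varied with *Cck* (r = 0.694, rho = 0.534). These libraries share depth and tissue composition, whose part in the correlations was not tested.

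**Figure D4:**
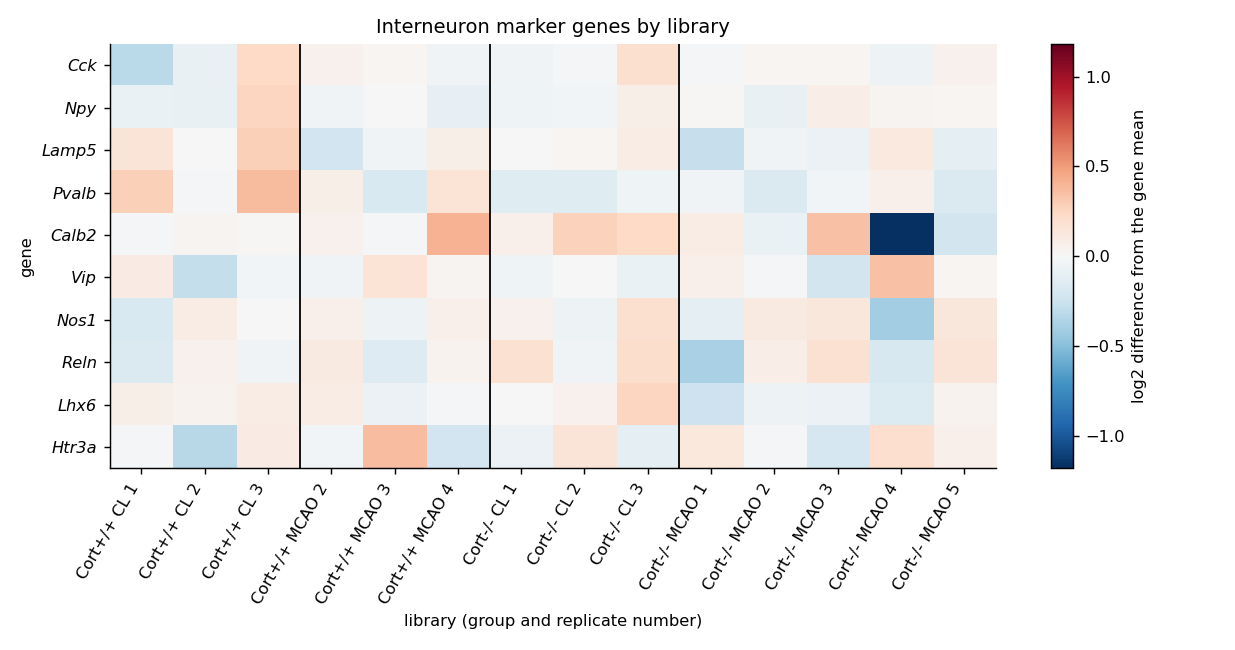
Log2 difference of each library from the mean of the gene over 14 libraries, for the 10 interneuron marker genes (rows) and the libraries by group and replicate number (columns), on a colour scale symmetric about 0. The darkest field is *Calb2* in Cort-/- MCAO replicate 4 at -1.18, and *Nos1* is lowest (-0.42) and *Vip* highest (0.35) in the same library.

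Among the 15063 genes that averaged 1 RPKM or more, those with the pattern most like each member over the 14 libraries had correlations between 0.824 and 0.957. *Calb2* was closest to *Tmem255a* (r = 0.957) and *Zcchc12* (r = 0.954), *Nos1* to *Isyna1* (r = 0.955) and *Rnf32* (r = 0.948), and *Vip* to *Spg21* (r = 0.936) and *Scara3* (r = 0.921). *Lhx6* was closest to *Shisa7* (r = 0.926) and *Pkp2* (r = 0.896), *Lamp5* to *4930447M23Rik* (r = 0.919), and *Reln* to *Dock10* (r = 0.914) and *Fat3* (r = 0.913). *Pvalb* was closest to *Smim1* and *Cox6c* (r = 0.901 each), *Npy* to *Fam163b* (r = 0.899) and *Pdap1* (r = 0.824), *Cck* to *Olfm1* (r = 0.888) and ENSMUSG00000135159 (r = 0.871), and *Htr3a* to *Spg21* (r = 0.83, the second in rank). None of these genes is another member. Exons of other annotated genes overlap those of *Cck*, *Nos1* and *Reln* on the opposite strand and of *Lhx6* on the same strand, and the strand setting of the counting is not given in the sources used here.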

How the data were processed

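PolyA RNA of 14 hemispheres was sequenced with a stranded kit. The authors processed the reads with the reanalyzerGSE software on GRCm39 and deposited RPKM values per gene and library, unpooled. Library sizes and gene lengths that return whole reads were searched for, and 100% of 495656 values above 0 came back within 0.01 reads. Gene positions follow GENCODE M39, promoters RefSeq.

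Genes above 0 in at least 2 libraries (46102 of 46904) were fitted on log2(RPKM + 0.1) with limma 3.58.1 in R 4.3.3, with 1 model of 4 groups and a variance trend. Fold changes on this scale are slightly compressed for low genes. P-values were adjusted by the Benjamini-Hochberg method. The protocol calls the replicates independent biological samples, and the model treats all 14 libraries as independent. The labels do not say whether CL and MCAO libraries come from the same animals. If they do, the p-values between hemispheres could differ in a paired model. Samples were grouped by their labels. The members and lists were chosen with earlier results of these data known. Named are all members, up to 4 called genes per list with the largest hemisphere difference, *Cort*, *Sst* and the 2 genes most like each member. 3 genes that this rule names are not reported here. *Gad1*, *Gad2*, *Slc32a1*, *Tubb3*, the Reelin receptors and the named cerebellar genes were named after their values were seen. The read recovery and the limma fit of the hemisphere contrasts and the averaged genotype contrast were tested on simulated data. Changes of 1.5-, 2-, 4- and 8-fold were planted, 50 of each, in genes averaging at least 1 RPKM. The simulated noise was independent between genes, which that of the data is not. Of the 1.5-fold hemisphere changes, 58% were recovered in Cort+/+, 62% in Cort-/- and 76% on average over genotypes. In the data the Cort+/+ contrast called 5 genes. The recovered shares are therefore not the power of the tests on the members. False calls in these contrasts were 12, 18 and 17, counted over all 46102 genes and not as a share of the genes called. Alternatives were TPM, quantile and other scalings, pseudocounts, filters, library weights, voom on recovered reads, replicate blocks and leaving out each library. Python 3.11.15 drew the figures with matplotlib 3.10.9.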

Additional observations from a re-analysis of the deposited data

How the results depend on the processing

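All 26 alternatives called 0 of the 10 members in each of the 7 contrasts. The replicate block called 0 genes of the whole table between hemispheres and for the difference in response. Its result there therefore says nothing about the members. The smallest adjusted p of a member was 0.122, in the averaged hemisphere contrast when only genes averaging 0.5 RPKM or more were fitted. Same-numbered hemispheres of 1 genotype had correlations between -0.239 and 0.316, and libraries did not all correlate best with their own number, so the numbers were not taken to pair the samples. With the replicate block 0 genes of the table passed in the averaged hemisphere contrast, where 1579 passed without it and 941 to 1913 when 1 library was left out. In Cort+/+ mice the 5 calls became 160 without Cort+/+ MCAO replicate 4 and 0 with the block, and in Cort-/- mice the 792 calls became 133 without Cort-/- CL replicate 1, 1404 with voom and 0 with the block. Between genotypes the counts ran from 4 to 90 in CL, 4 to 40 in MCAO and 8 to 49 on average, and for the difference in response from 0 to 16. The cause was not tested.

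Of 1222 recomputed fold changes, 88 lost a call that the main fit had made and 0 gained one. A further 41 changed sign, none of them past the threshold. For the averaged hemisphere contrast, scaling by the pan-neuronal list gave 0.0225 for *Pvalb*, 0.0501 for *Reln*, 0.0712 for *Npy*, 0.0751 for *Nos1* and 0.005 for *Sst*. TPM gave 0.0022 for *Npy* and 0.0068 for *Nos1*, voom 0.0228 for *Npy* and 0.0241 for *Nos1*, library weights -0.0054 and the replicate block -0.0373 for *Cck*. Leaving out 1 library gave ranges of -0.0549 to 0.0293 for *Npy*, -0.0578 to 0.0261 for *Nos1*, -0.0521 to 0.0848 for *Cck* and -0.0004 to 0.1421 for *Htr3a*. Between genotypes on average, TPM gave 0.0002 for *Lamp5* and 0.0274 for *Lhx6*, pan-neuronal scaling 0.0047 for *Lhx6*, and library weights -0.0081 for *Npy*. Leaving out 1 library gave -0.0422 to 0.0515 for *Vip*, -0.1568 to 0.0339 for *Calb2*, -0.0178 to 0.0664 for *Npy*, -0.0161 to 0.0678 for *Nos1*, -0.0168 to 0.1201 for *Cck* and -0.026 to 0.1166 for *Htr3a*. In Cort+/+ mice the replicate block gave -0.004 for *Calb2* and pan-neuronal scaling 0.0411 for *Lhx6* between hemispheres. Depth limits *Htr3a* most, and with 3 libraries in most groups small differences could not be resolved.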

Other observations

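The low *Calb2* of Cort-/- MCAO replicate 4 was 1.27 log2 units below the mean of the other 13 libraries. In that library 108 of 15063 genes averaging 1 RPKM or more (0.717%) were at least 1 log2 unit below the mean of the others, against 47 to 249 genes in the other libraries, and 272 were at least 1 log2 unit above it, against 33 to 277. No other member was as much as 1 log2 unit away from its mean in any library.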
